A study of Mus musculus with 2 samples.

Results

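The 64 genes described here encode signalling proteins that immune and epithelial cells secrete or display: chemokines, selected interleukins and growth factors, and ligands of the tumour necrosis factor (TNF) superfamily. They were chosen by symbol from the 37681 gene identifiers of the count files (names beginning Ccl, Cxcl or Tnfsf with a digit, plus 19 named genes such as Il33, Csf1 and Tnf), and their receptors were left out. The symbol rule also took in the pseudogene Ccl19-ps1, Cxcl11, which the annotation lists as a polymorphic pseudogene, and Tnfsf13os, an antisense RNA. RNA was sequenced from the corpus epithelium of C57BL/6 mice with the genotype Hdc-CFP transgenic, in which a cyan fluorescent protein marks cells that use the histamine-synthesis gene Hdc. The sorted library was made from CFP-positive cells and the depleted library from epithelial cells from which these had been removed; both groups carried the transgene. Each group held 1 library, and the age, sex and number of the mice and any treatment were not stated in the labels. The study asked about the origin of the Hdc-positive cells.

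Chemokines are small proteins that attract leukocytes through G protein-coupled receptors, and are classed by the spacing of their first cysteines as CC, CXC or CX3C. The interleukin-1 family holds both secreted inflammatory cytokines and alarmins, which are stored in barrier cells and released on damage. TNF superfamily ligands are mostly trimeric membrane proteins that act on death, survival and co-stimulatory receptors. In the stomach such ligands come from surface epithelium, tuft cells and resident macrophages, while the enterochromaffin-like cell, the histamine-secreting endocrine cell of the corpus, is known for amines and peptides.

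Gene counts totalled 10736538 (sorted) and 50928524 (depleted), so low values are known less precisely in the sorted library. All 4 markers listed for enterochromaffin-like cells (Hdc, Chga, Slc18a2 and Cckbr) were higher in the sorted library, by 31.0-fold to 413-fold. The label names only Hdc-CFP-positive cells, and Hdc is the gene whose reporter was sorted on. Levels are normalised CPM, that is counts divided by the scaled library size, and folds carry exact 95% intervals in brackets that cover counting error only. With 1 library a group there was no replicate check and no test, so each statement compares these libraries, not the cell populations in general. In bulk RNA, fewer cells of a type and less RNA per cell cannot be told apart.

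Most of the ligand genes with enough counts were lower in the sorted library. Of the 64 genes, 47 were measured, meaning at least 10 counts in at least 1 library; 12 had a count but fewer than 10 (Ccl1, Ccl17, Ccl20, Cxcl3, Cxcl5, Cxcl15, Csf2, Il34, Lta, Tnfsf4, Tnfsf8 and Tnfsf14), and Ccl19, Ccl19-ps1, Ccl26, Ccl28 and Tnfsf11 were listed at 0 in both. In counts of genes, higher and lower stand for measured genes that differed by at least 2-fold and whose interval excluded 1 (a count of 0 was replaced by 3). By this rule 29 members were lower, 61.7% of those measured, against 21.9% of all 16682 measured genes. Another 4 (Il1rn, Tnfsf10, Tnfsf15 and Ccl27a) were higher, or 8.51%, against 21.9% of all measured genes, and 14 were neither. The median log2 fold of the measured members was -4.18, or -3.15 with a count of 0 set to 3, beside -0.05 over all measured genes. Many members passed the minimum only through the deeper depleted library, so these counts describe the measured members and not all 64. Summed over the members, the level was 82.8 CPM after sorting and 1251 CPM after depletion, which differ 15.1-fold [14.2 to 16.1]. Without Il33 the sums were 69.2 and 743 CPM, which differ 10.7-fold [10.02 to 11.5].

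**Figure D1:**
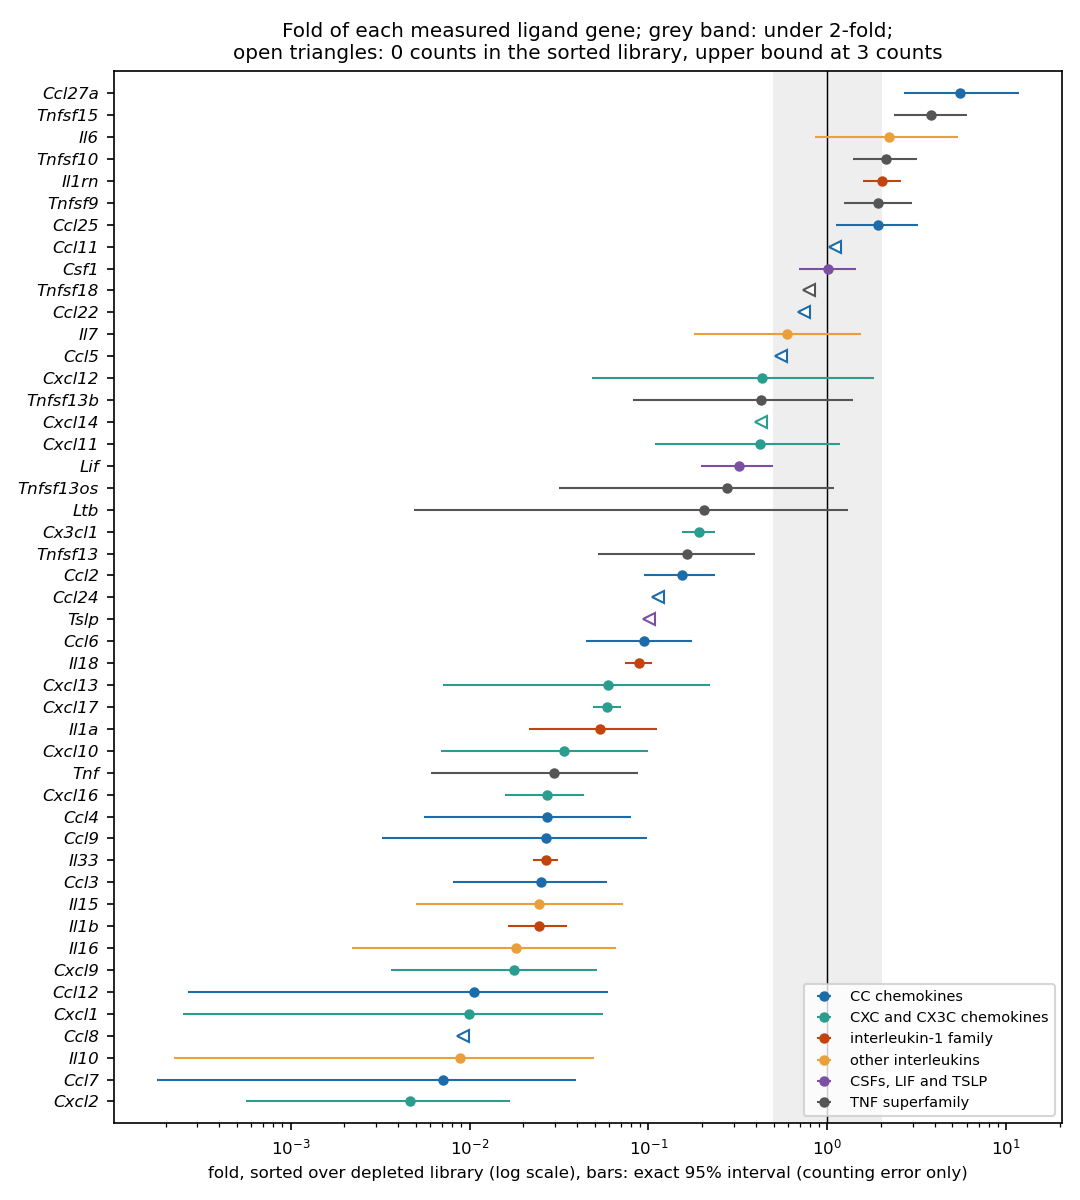
Fold of each of the 47 measured ligand genes, sorted over depleted library, on a log axis. Bars are exact 95% intervals for counting error and colours are roles. Open triangles are folds with 3 counts in place of 0 in the sorted library. The 29 lower members reach from Cxcl2, 214-fold lower, to Lif and Cxcl14 near the grey band of under 2-fold. The interval of Cxcl2 overlaps those of other members. The 4 higher members lie to the right of the band or at its edge.

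Macrophage and general leukocyte markers were lower like most of these ligands, as were most markers of several other cell types. Markers of other leukocytes were split. All 8 macrophage markers were lower in the sorted library, where they summed to 10.8 CPM against 2803 CPM, and all 7 general leukocyte markers were lower, with sums of 10.2 and 445 CPM. None of these 15 genes was at 0. Of the neutrophil markers S100a9 and S100a8 were higher (4.17-fold [2.63 to 6.63] and 2.66-fold [1.36 to 5.07]), Csf3r was lower and Ly6g was at 0 in both. In the T cell list Lck was higher (7.11-fold [3.60 to 14.7]) and Cd4 lower. The other 4 (Cd3e, Cd3g, Cd3d and Cd8a) had 0 sorted and only 2 to 4 depleted counts, too few to compare. In the B cell list Jchain was higher (2.54-fold [1.40 to 4.50]) and Cd79b lower, and in the dendritic cell list Zbtb46 was higher (2.41-fold [1.78 to 3.23]) and Itgax lower. The 4 measured surface mucous markers were also lower, by 37.5-fold to 44.2-fold, as were all 5 tuft cell markers, of which Ptgs1 and Pou2f3 were at 0. All 4 parietal cell markers, 3 of 4 chief cell, 4 of 5 fibroblast and 3 of 5 endothelial markers were lower too. Another endothelial marker was higher, and the 2 measured erythroid markers were neither. Over all measured genes 21.9% were lower. Of the 8 mast cell markers 6 were higher and 0 lower, with sums of 269 and 106 CPM. The part of these cells in the ligand differences was not tested.

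The CC chemokines, which recruit monocytes, eosinophils and lymphocytes, were lower in 9 of 14 measured cases and higher in 1. The lower share was 64.3%, against 21.9% of all measured genes. Ccl8, a monocyte and eosinophil attractant, had 0 sorted against 1204 depleted counts, so it was at least 109-fold lower. Ccl7, of the same monocyte-attracting group, had 1 count against 522 (ratio of depleted to sorted 142 [25.3 to 5602]). Ccl12 had 1 count against 349 (94.6 [16.9 to 3749]). The main monocyte attractant Ccl2 behaved differently in size: its 21 counts against 505 gave 1.72 and 11.2 CPM, 6.52-fold lower [4.22 to 10.6]. The interval of Ccl2 did not overlap those of Ccl7, Ccl12 and Ccl8, although these genes lie next to each other in the RefSeq order of protein-coding genes.

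A second run of neighbouring genes, Ccl5, Ccl9, Ccl6, Ccl3 and Ccl4, held 4 lower members. Ccl3 and Ccl4, made by activated macrophages and lymphocytes, had 5 counts against 737 (40.0-fold lower [17.1 to 123]) and 3 against 408 (ratio of depleted to sorted 36.9 [12.5 to 179.6]). Ccl9 had 2 counts against 275 (37.3 [10.2 to 309]). Ccl6 had 10 counts against 391 and was 10.6-fold lower [5.70 to 22.3]. Ccl5, a T cell attractant, had only 20 depleted counts and 0 sorted counts. With 3 counts in place of 0 it was 1.81-fold lower, short of 2-fold, and the near end of its interval was 1.34-fold lower. Outside these runs Ccl24, an eosinophil attractant, had 0 counts against 98. With 3 counts in place of 0 it was 8.86-fold lower, and the near end of its interval was 7.07-fold lower. Ccl11 and Ccl22, with 0 counts against 10 and 15, could not be placed at this depth.

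Ccl25 and Ccl27a, chemokines of epithelia, went the other way in value. Ccl27a had 21 counts (1.72 CPM) against 14 (0.312 CPM) and was 5.53-fold higher in the sorted library [2.68 to 11.8]. It shares 44.98% of its 50-base words with another annotated gene, and reads that align to several places are not counted, so its level is uncertain. Ccl25, with 24 counts against 46, differed 1.92-fold [1.12 to 3.22], short of 2-fold. Both had few counts, and each stood under 2 CPM in both libraries.

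Among the CXC and CX3C chemokines 9 of 11 measured members were lower (81.8%, against 21.9% of all measured genes) and 0 higher. Cxcl17, a chemokine of mucosal surfaces, had the most counts, with 128 (10.5 CPM) after sorting against 8035 (179 CPM), and was 17.02-fold lower [14.3 to 20.4]. Cxcl16, a membrane-bound ligand and scavenger receptor, had 17 counts against 2302 and was 36.7-fold lower [22.9 to 63.1], although 18.3% of its exon bases overlap the antisense gene Zmynd15. Cx3cl1, or fractalkine, the membrane-tethered ligand of the macrophage receptor CX3CR1, had 95 counts (7.80 CPM) against 1828 (40.7 CPM). Its 5.22-fold difference [4.24 to 6.48] was smaller than those of Cxcl16 and Cxcl17, whose intervals did not overlap it. The interferon-induced attractants of T cells Cxcl9 and Cxcl10 had 3 counts each in the sorted library against 627 and 329, which gave ratios (depleted over sorted) of 56.7 [19.3 to 276] for Cxcl9 and 29.7 [10.1 to 145] for Cxcl10. Cxcl13, a B cell attractant, had 2 counts against 124 (16.8 [4.56 to 140.4]). Cxcl14 had 0 against 26 and was 2.35-fold lower with 3 counts in place of 0. The near end of its interval was 1.78-fold lower, under 2-fold. Cxcl11 (4 counts against 35) and Cxcl12 (2 against 17) had intervals that included 1, and 41.7% of the exon bases of Cxcl11 overlap an antisense gene.

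The neutrophil attractants Cxcl1 and Cxcl2 were nearly missing from the sorted library. Cxcl2 had 2 counts (0.164 CPM) against 1578 (35.1 CPM), the largest ratio of depleted to sorted among members with a count in both, 214 [59.1 to 1768]. Its interval overlapped those of other members, Ccl7, Il10, Cxcl1 and Ccl12 among them, so Cxcl2 cannot be ranked first. Cxcl1 had 1 count against 370 (100.3 [17.9 to 3974]). Their paralogues Cxcl3 and Cxcl5 had 5 and 1 depleted counts and 0 sorted counts, too few to compare. Cxcl1 and Cxcl2 neighbour each other, and their promoters are shown with those of Cxcl10, which was also lower, and of Csf1, which was not, because all of them hold a match to the NF-kB consensus, the site bound by the main inflammatory transcription factor. The stretches are the 180 bases before the annotated start in RefSeq (GRCm38.p6), with each match, on either strand and including overlapping matches, in capitals.
Cxcl1, chr5:90891065-90891244, plus strand: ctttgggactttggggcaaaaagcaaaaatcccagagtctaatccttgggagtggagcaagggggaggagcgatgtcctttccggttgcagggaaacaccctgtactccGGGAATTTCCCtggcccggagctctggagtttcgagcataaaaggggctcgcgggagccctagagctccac
Cxcl2, chr5:90903719-90903898, plus strand: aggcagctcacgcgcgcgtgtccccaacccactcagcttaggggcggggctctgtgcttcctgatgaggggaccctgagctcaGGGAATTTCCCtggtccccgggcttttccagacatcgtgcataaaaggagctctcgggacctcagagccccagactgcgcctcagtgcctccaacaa
Cxcl10, chr5:92348890-92349069, minus strand: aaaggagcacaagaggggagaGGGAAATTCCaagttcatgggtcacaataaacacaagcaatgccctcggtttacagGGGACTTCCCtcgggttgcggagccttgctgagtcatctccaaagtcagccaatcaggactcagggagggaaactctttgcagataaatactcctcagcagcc
Csf1, chr3:107760470-107760649, minus strand: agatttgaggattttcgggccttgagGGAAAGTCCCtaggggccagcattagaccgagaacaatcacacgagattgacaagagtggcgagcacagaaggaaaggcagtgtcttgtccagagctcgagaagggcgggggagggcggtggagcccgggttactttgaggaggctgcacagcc

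Cxcl1 and Cxcl2 carry the same 11-base match, in which a match on each strand overlaps by all but 1 base. Matches whose starts lie 1 base apart also occur in Cxcl3 and in 1 promoter of Il16. Cxcl10 carries a pair of separate matches. Over the window from 250 bases before to 50 bases after the start, 11 of the 44 members found in the RefSeq promoter table held a match, or 25%, beside 5.14% of all 27025 genes there. Matches occurred among lower, higher and other members: 5 of the 20 lower members with a promoter held one (Ccl9, Cxcl1, Cxcl2, Cxcl10 and Il16), 3 of 8 members that were neither higher nor lower (Csf1, Il6 and Ltb), and 1 of the 4 higher ones (Ccl27a). The remaining members with a match were Ccl20 and Cxcl3, which had too few counts to be measured. A match is a run of letters and not evidence of binding.

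**Figure D2:**
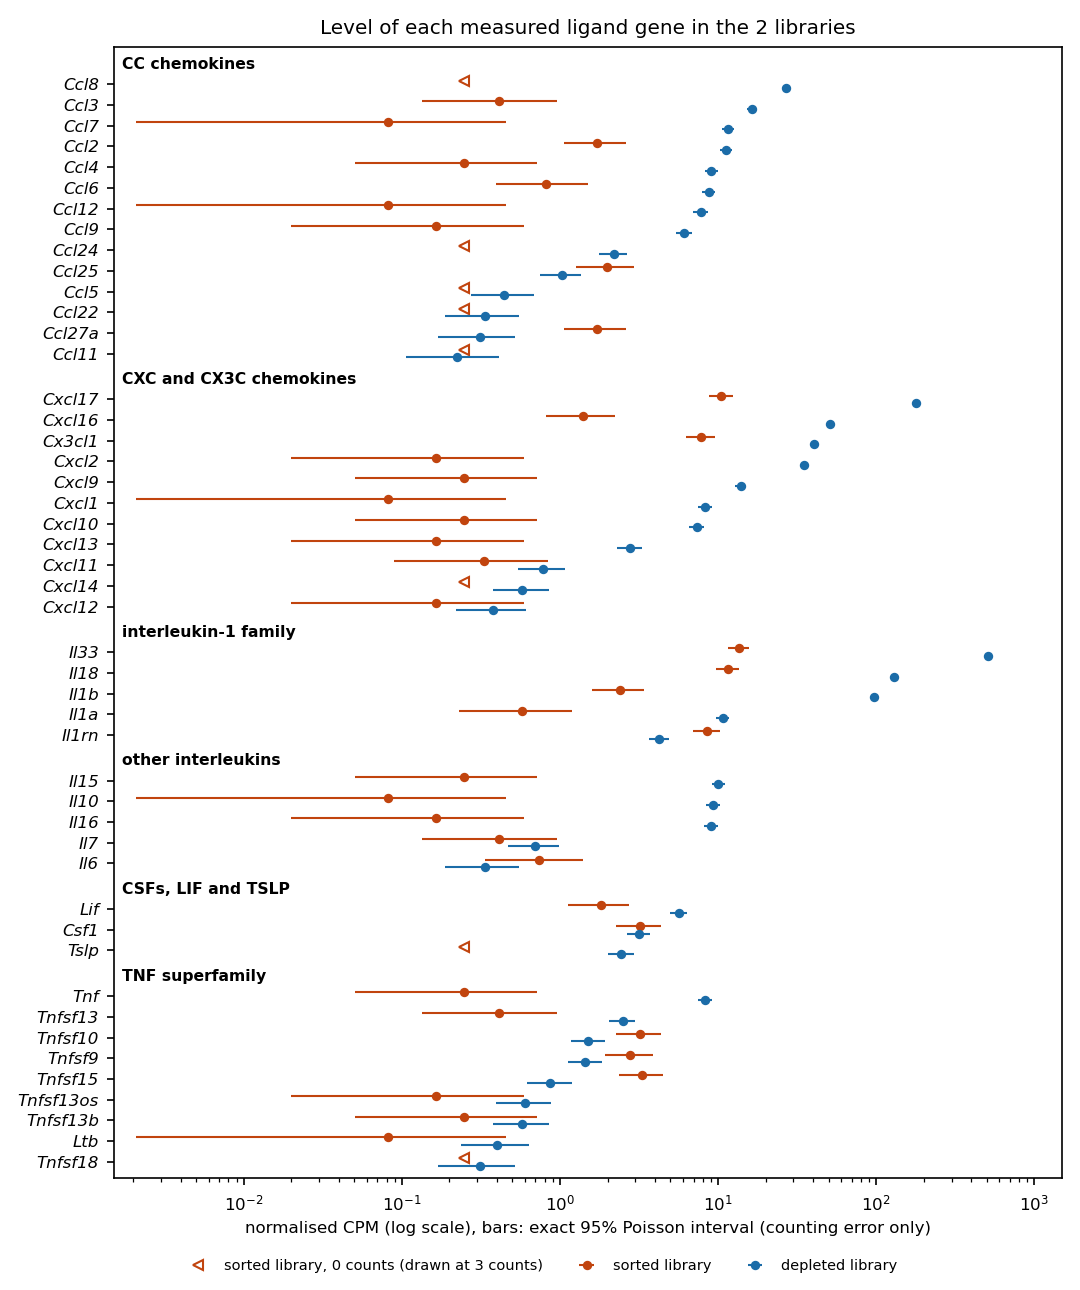
Normalised CPM (log axis) of the 47 measured ligand genes in the sorted (orange) and depleted (blue) library, by role, with exact 95% Poisson intervals for counting error; open triangles stand at 3 counts where the sorted library had 0. Of these genes 33 exceed 1 CPM after depletion and 15 after sorting, and the orange points of Il1rn, Tnfsf10, Tnfsf15 and Ccl27a lie to the right of the blue ones.

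The interleukin-1 family held the most counts and was split, with 4 members lower and the antagonist higher. With 5 members measured, the shares were 80% lower and 20% higher, against 21.9% each way over all measured genes. Il33, a nuclear alarmin of barrier cells that acts on mast cells and innate lymphocytes, had 165 sorted counts (13.6 CPM) against 22822 (508 CPM), 37.5-fold lower [32.2 to 44.0]. Il18, made as an inactive precursor in epithelium and cleaved by caspase-1, had 140 counts (11.5 CPM) against 5857 (130.4 CPM), 11.3-fold lower [9.59 to 13.5]. Il1b, the inducible cytokine of activated macrophages, had 29 counts against 4371 and was 40.9-fold lower [28.4 to 61.1]. Il1a, its neighbour in the gene order, had 7 counts against 481 (18.6-fold lower [8.97 to 46.6]), and 11.2% of its exon bases overlap an antisense gene. The interval of Il18 lay apart from those of Il33 and Il1b, whereas Il33 and Il1b could not be told apart.

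Il1rn encodes the interleukin-1 receptor antagonist, which occupies the receptor of Il1a and Il1b without signalling. It had 104 sorted counts (8.54 CPM) against 190 (4.23 CPM) and was 2.02-fold higher [1.57 to 2.58], just past 2-fold. With DESeq2 size factors, or with scaling factors taken from all genes, it was under 2-fold. Within a library no scaling enters: there were 3.59 counts of Il1rn per count of Il1b in the sorted library [2.36 to 5.62] and 0.0435 in the depleted library [0.0374 to 0.0503]. Set against Il1a the ratios were 14.9 [6.96 to 37.9] and 0.395 [0.332 to 0.468]. Antagonist counts thus exceeded those of both agonists in the sorted library and fell short of both in the depleted one. Counts also grow with length, and Il1rn has 5535 annotated exon bases, against 1907 for Il1b and 1974 for Il1a. Per kilobase of exon, the sorted library had 1.54 CPM of Il1rn, 1.25 of Il1b and 0.291 of Il1a. The count excess over Il1b was thus much smaller per length. In the depleted library these values were 0.764, 51.0 and 5.43. These pairs, and the next, were chosen after the values were known.

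Il33 and Cxcl17 were also set beside Gkn1, the gastrokine of surface mucous cells, within each library. The sorted library had 0.00866 counts of Il33 per count of Gkn1 [0.00738 to 0.0101] and the depleted one 0.00745 [0.00735 to 0.00754], with intervals that overlapped. For Cxcl17 the ratios were 0.00672 [0.00560 to 0.00799] and 0.00262 [0.00256 to 0.00268], so Cxcl17 was lower in the sorted library by a smaller factor than Gkn1. Whether residual surface cell RNA gives the Il33 counts of the sorted library was not tested.

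Of the 5 other interleukins measured, 3 were lower (60%, against 21.9% of all measured genes) and 0 higher. Il10, an anti-inflammatory cytokine of resident macrophages, had 1 count against 417 (ratio of depleted to sorted 113 [20.2 to 4477]). Il15, which sustains natural killer cells and intraepithelial lymphocytes, had 3 counts against 450 (40.7 [13.8 to 198]). Il16, a ligand of CD4, had 2 counts against 405 (54.9 [15.1 to 455]), and 17.4% of its exon bases overlap antisense genes. Il6 and Il7 were near the minimum in both libraries. Il6, the inducible cytokine of the gp130 receptor, had 9 counts against 15 (2.21-fold higher [0.854 to 5.40]), and the lymphocyte survival factor Il7 had 5 against 31 (1.68-fold lower [0.648 to 5.54]). Neither interval excluded 1.

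Among the growth factors Csf1 stood at a like level in both libraries, while Lif and Tslp were lower. Csf1, the macrophage growth factor, had 39 sorted counts (3.20 CPM) against 142 (3.16 CPM), a fold of 1.01 whose interval [0.692 to 1.45] stays under 2-fold either way. The direction of this value depends on the scaling. Lif, a cytokine of the gp130 group, had 22 counts against 253 (3.12-fold lower [2.02 to 5.07]). Tslp, an epithelial alarmin of type 2 immunity, had 0 counts against 110. With 3 counts in place of 0 it was 9.94-fold lower, and the near end of its interval was 7.95-fold lower. Csf2 had 0 counts against 2.

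The TNF superfamily was mixed, with 2 members higher, 2 lower and 5 neither among 9 measured. Its shares of 22.2% each way were near the 21.9% each way over all measured genes. Tnf itself, the macrophage and T cell cytokine, had 3 counts against 373 (ratio of depleted to sorted 33.7 [11.4 to 164]). Its neighbours on either side in the gene order, Lta and Ltb, had 1 count each in the sorted library against 1 and 18, and the 4.88-fold difference of Ltb had an interval that included 1 [0.771 to 203]. Tnfsf13, or APRIL, a survival factor of plasma cells, had 5 counts against 112 and was 6.07-fold lower [2.53 to 19.1]. Of its exon bases 60.0% overlap other annotated genes, Tnfsfm13 and the antisense Tnfsf13os. Its counts may therefore be partly missing or not its own. The related B cell factor Tnfsf13b, with 3 counts against 26, was not separable from 1 (2.35 [0.720 to 12.1]), nor was the antisense RNA Tnfsf13os, with 2 against 27 (3.66 [0.920 to 31.8]). Tnfsf18 had 0 counts against 14, too few for 2-fold to be seen.

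In the sorted library the TNF ligands with the most counts were Tnfsf15, Tnfsf10 and Tnfsf9. Tnfsf15, or TL1A, a co-stimulator of T cells in gut inflammation, had 40 counts (3.28 CPM) against 39 (0.869 CPM), 3.78-fold higher [2.37 to 6.04]. Tnfsf10, or TRAIL, a ligand of death receptors, had 39 counts (3.20 CPM) against 68 (1.51 CPM), 2.11-fold higher [1.39 to 3.18]. Tnfsf9, the ligand of 4-1BB, had 34 counts against 65, and its 1.93-fold difference [1.23 to 2.96] did not reach 2-fold. Of its exon bases 14.9% overlap an antisense gene. Tnfsf10 fell under 2-fold with DESeq2 size factors and with factors taken from all genes, while Tnfsf9 passed it by total counts without a factor and by totals without the 20 most abundant genes. Tnfsf15 kept its call under every scaling tried, and lost it only when 4-fold was required.

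The make-up of the ligand counts, which is free of scaling, also differed between the libraries. Il33 took 40.6% of the 56187 counts of all members in the depleted library (exact binomial interval 40.2 to 41.0) and 16.4% of 1008 in the sorted library (14.1 to 18.8). Il1b took 7.78% (7.56 to 8.004) and 2.88% (1.94 to 4.11). In contrast, Il1rn took 0.338% (0.292 to 0.390) of the depleted and 10.3% (8.51 to 12.4) of the sorted member counts, and Cx3cl1 3.25% (3.11 to 3.40) and 9.42% (7.69 to 11.4). Cxcl17 took 14.3% (14.0 to 14.6) and 12.7% (10.7 to 14.9), intervals that overlapped. Members together made up 0.110% of the depleted and 0.00939% of the sorted gene counts.

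**Figure D3:**
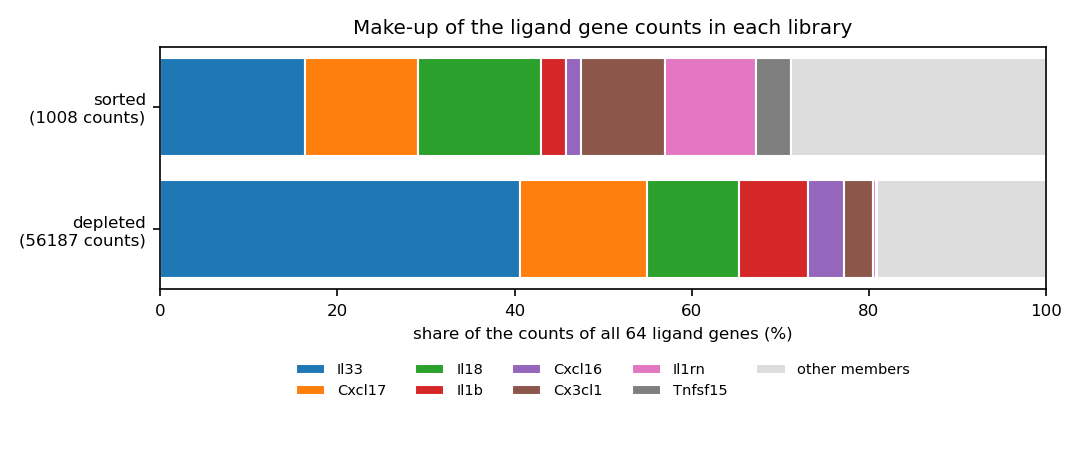
Share of the counts of all 64 ligand genes (%) taken by the 8 most abundant of either library, 1 bar per library. Il33 (blue) shrinks from 40.6% in the depleted to 16.4% in the sorted library, while Il1rn (pink) and Cx3cl1 (brown) widen to 10.3% and 9.42%.

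Levels of different genes were compared per length, as normalised CPM per kilobase of annotated exon. On this scale the order in the depleted library was Cxcl17 (235), Il33 (176), Il18 (127), Ccl8 (52.5) and Il1b (51.0), and the intervals of the last pair overlapped. In the sorted library it was Cxcl17 (13.8), Il18 (11.2), Il33 (4.70), Tnfsf9 (2.16) and Cx3cl1 (1.99). In the sorted library the intervals of Cxcl17 and Il18 overlapped, as did those of Tnfsf9 and Cx3cl1, so neither pair can be ordered there. Il1rn (1.54) and Ccl2 (1.52) came next, with intervals that overlapped those of Tnfsf9 and Cx3cl1. The order of the genes after Il33 is therefore not settled there. Il33, which led by counts in both libraries, stood below Cxcl17 per length in both.

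The receptors of these ligands were counted from lists of 23 chemokine, 21 interleukin and growth factor, and 23 TNF receptor genes. Of 15 measured chemokine receptor genes 9 were lower (60%, against 21.9% of all measured genes) and 1 higher, and the median was -3.96 on the log2 scale. The most abundant were Cx3cr1, the fractalkine receptor (12 counts against 5739, 129.7-fold lower [74.2 to 251]), the atypical receptor Ccrl2 (25.4-fold lower [16.5 to 41.1]), Cxcr4 (43.5-fold lower [22.0 to 100.9]) and Ccr1 (3 counts against 1149, ratio of depleted to sorted 104 [35.5 to 504]). The higher one, named after its value was seen, was Ccr10, the receptor of Ccl27a, on 16 counts against 10 (5.90-fold [2.52 to 14.5]), which a minimum of 20 counts leaves out. The Cx3cl1 counts per Cx3cr1 count were 7.92 in the sorted [4.33 to 15.9] and 0.319 in the depleted library [0.302 to 0.336].

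Interleukin and growth factor receptors were closer to balance, with 2 higher, 8 lower and 9 neither among 19 measured (42.1% lower, against 21.9% of all measured genes), and a median of -0.62. The gp130 subunit Il6st and the Lif receptor Lifr stood at 163 and 64.8 CPM in the sorted and 146 and 88.4 CPM in the depleted library (1.12-fold higher [1.06 to 1.17] and 1.36-fold lower [1.26 to 1.47]), and Il6ra was 1.71-fold higher [1.56 to 1.87]. Csf1r, with 5 counts against 24469, was 1327-fold lower [569 to 4088], so its difference and that of its ligand Csf1 were far apart. Both higher genes, singled out once values were known, were Il1rap, the shared subunit of the interleukin-1 and interleukin-33 receptors, with 228 counts against 247 (3.40-fold [2.83 to 4.09]), and Crlf2, the Tslp receptor, with 141 against 132 (3.94-fold [3.08 to 5.03]). The interleukin-33 receptor Il1rl1, also named then, had 45 counts against 92 and was 1.80-fold higher [1.23 to 2.60], short of 2-fold. Mast cells, whose markers were higher in the sorted library, are known to use these receptors, and their part was not tested.

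TNF receptors were lower in 11 of 18 measured cases (61.1%, against 21.9%) and higher in 2, with a median of -1.89. Tnfrsf21, or DR6, had 106 CPM after sorting against 503 CPM (4.74-fold lower [4.48 to 5.01]), the lymphotoxin receptor Ltbr was 2.59-fold lower [2.42 to 2.78] and Tnfrsf1b, the leukocyte-rich TNF receptor, 26.7-fold lower [18.4 to 40.2]. Tnfrsf1a, the widely active TNF receptor, stood at 63.3 and 95.2 CPM, 1.503-fold lower [1.39 to 1.63], which is under 2-fold. The higher ones, named after their values were seen, were Tnfrsf9, the receptor of Tnfsf9, with 41 counts against 3 (ratio of sorted to depleted 50.4 [16.1 to 254]), and Cd27, with 17 against 14 (4.48 [2.08 to 9.81]), which a minimum of 20 counts leaves out.

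Genes that process these ligands and genes of the signalling that induces them were counted from lists of their own. Of 11 measured processing genes 9 were lower (81.8%, against 21.9% of all measured genes) and 1 higher, with a median of -3.36. The sheddases Adam10 and Adam17, which release membrane-bound ligands, were 3.55-fold [3.35 to 3.76] and 2.39-fold lower [2.20 to 2.60], Gsdmd, the pore through which interleukin-1 leaves cells, was 9.33-fold lower [7.86 to 11.2] and Furin 1.31-fold lower [1.26 to 1.37], under 2-fold. Nlrp6, named after its value was seen, was the higher one (25 counts against 19, 4.85-fold [2.57 to 9.32]). In the NF-kB signalling list 7 of 23 measured genes were lower, 1 was higher and 15 were neither, with a median of -0.57. The lower share, 30.4%, was not far from the 21.9% over all measured genes. The regulator genes Nfkbiz and Tnfaip3 were 4.70-fold [4.38 to 5.06] and 10.9-fold lower [9.32 to 12.9]. The subunit gene Nfkb1 was 1.77-fold higher [1.67 to 1.86] and the kinase gene Chuk 1.26-fold lower [1.19 to 1.34], both under 2-fold. The higher one, named after its value was seen, was Traf3, at 2.01-fold [1.86 to 2.17], which fell under 2-fold with DESeq2 size factors and with factors from all genes.

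**Figure D4:**
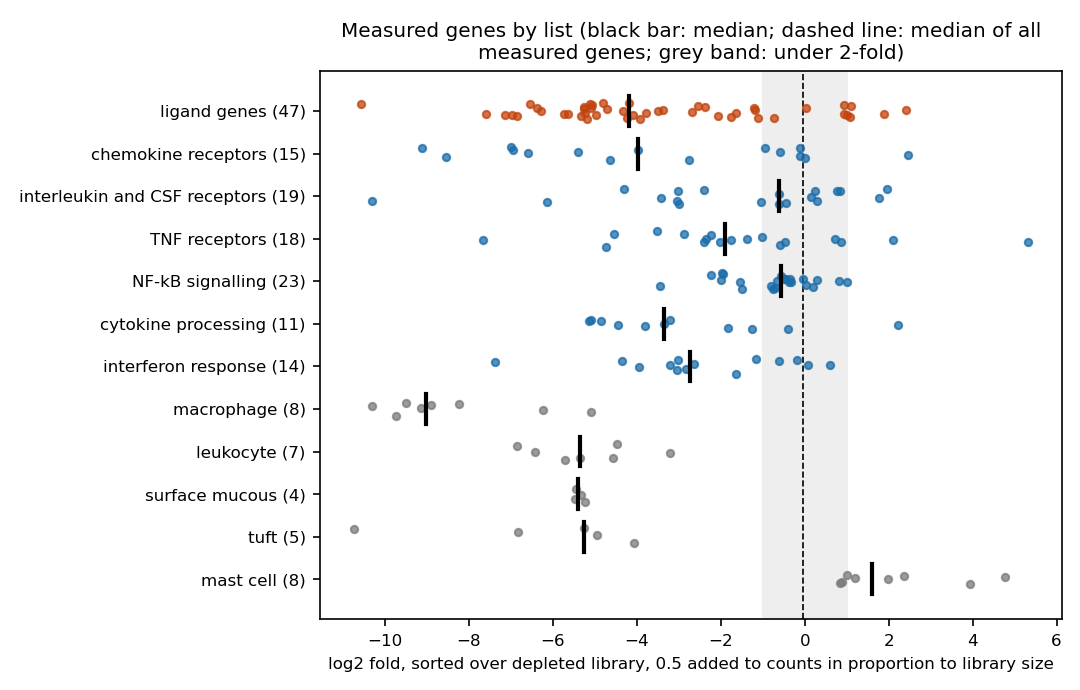
Log2 fold (sorted over depleted library, 0.5 added to counts in proportion to library size) of the measured genes of each list, 1 point per gene, with the number measured in brackets; black bars are medians and the dashed line is the median of all measured genes. The ligand genes centre on -4.18 and the chemokine receptors on -3.96, with macrophage markers further left and mast cell markers to the right.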

How the data were processed

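RNA-seq libraries of sorted and depleted cells (1 each) were compared. Alignment used TopHat2 2.0.07 and the mm9 build and counting used HTSeq, per the submitters' processing notes; its version, strand setting and annotation are not given in the sources used here. Each deposited file holds raw counts by Ensembl gene identifier. The 5 summary rows that name no gene were left out; they held 9.20% and 4.91% (outside genes), 1.45% and 1.11% (more than 1 gene) and 24.2% and 34.3% (not unique) of the sorted and depleted alignments. Reads of near-identical or overlapping genes are therefore partly missing, and antisense pairs cannot be separated.

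Symbols came from GENCODE M21 by identifier (32642 of 37681 matched). Counts were scaled with edgeR 4.0.16 (R 4.3.3) TMM factors from genes with at least 10 counts in at least 1 library, which were 1.13 (sorted) and 0.882 (depleted). Fold intervals are Clopper-Pearson and CPM intervals exact Poisson, both at 95%. A count of 0 was replaced by 3 counts per library (0.246 CPM sorted, 0.0668 CPM depleted) in calls and in the folds of such genes. Intervals kept the count of 0. Exon lengths, overlaps and shared 50-base words came from M21, gene order and promoters from RefSeq GRCm38.p6; as counts were made on mm9, only the promoters carry coordinates, of that RefSeq build. Intervals and calls were tried on simulated Poisson counts. These hold counting error only, the same model as the intervals, so variation between libraries was not tested.

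The members, lists and rules were chosen with earlier results of these data known. Every measured member is named; of each other list up to 4 measured genes with the most CPM are named, and genes beyond these are marked; 1 gene that this rule names is not reported here. Alternatives covered the scaling (total counts, DESeq2 1.42.0 size factors, upper quartile, total without the 20 most abundant genes), the count minimum, the fold, the interval and overlapping genes.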

Additional observations from a re-analysis of the deposited data

How the results depend on the processing

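The number of lower members was between 23 and 30 under every alternative, and 29 with the main settings; the 23 came from leaving out members that overlap or share words with other genes, which took out 6 lower members. The number of higher members (4) was less steady. It was 7 by total counts without a factor, where Ccl25, Il6 and Tnfsf9 joined. It was 2 with DESeq2 size factors and 2 with TMM factors from all genes, an alternative chosen after seeing the data, where Il1rn and Tnfsf10 dropped out. It was 1 (Ccl27a) when 4-fold with an interval beyond 2-fold was required. Total counts move the log2 fold of all genes by 0.36, totals without the 20 most abundant genes by 0.21, DESeq2 size factors by -0.09 and TMM factors from all genes by -0.11. The median log2 fold of the measured members lay between -4.72 and -3.11. Of 235 refitted member folds 230 stayed within their main interval and 5 left it. No higher or lower member changed sign; Csf1, which was neither, went from a log2 fold of 0.02 to -0.07 with DESeq2 size factors and -0.09 with TMM factors from all genes. No paired analysis was possible because each group held 1 library. Depth limits the sorted side: 17 measured members had 1 to 3 counts there and 8 had 0.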

Other observations

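Cytokine ligands that the symbol rule did not take in mostly had fewer than 10 counts in both libraries. Of 37 such genes found in the files 23 had a count and 8 were measured, of which 4 were lower in the sorted library and 2 higher. These shares were 50% and 25%, against 21.9% each way over all measured genes, so the higher share was near that of all genes. Pf4, a chemokine of platelets and macrophages that lies in the Cxcl gene cluster, had 1 count against 1475 (ratio of depleted to sorted 400 [71.7 to 15810]). Osm, a cytokine of the gp130 group made by myeloid cells, had 8 counts against 503 (17.1-fold lower [8.59 to 39.7]), and Ebi3, a subunit of heterodimeric cytokines, 6 against 218 (9.85-fold lower [4.45 to 27.1]). Eda, a TNF superfamily ligand of skin appendages, had 75 counts against 165 (1.68-fold higher [1.26 to 2.22]), under 2-fold. The 2 higher genes, named after their values were seen, were Il17d (30 counts against 34, 3.25-fold [1.92 to 5.48]) and Il11 (18 against 17, 3.90-fold [1.90 to 8.06]), the latter left out by a minimum of 20 counts.

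Of 14 interferon-response genes, all measured, 10 were lower in the sorted library (71.4%, against 21.9% of all measured genes) and 0 higher. The median was -2.74 on the log2 scale. Among the abundant members, the transcription factor genes Irf1 and Irf9 were 1.53-fold higher [1.40 to 1.67], under 2-fold, and at a fold of 1.06 with an interval that included 1 [0.934 to 1.19], while the induced gene Oasl2 was 8.23-fold lower [6.03 to 11.5].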
